A study of Mus musculus with 2 samples.

Results

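The core circadian clock genes Arntl (Bmal1), Clock, Per1, Per2, Per3, Cry1, Cry2, Nr1d1, Nr1d2 and Dbp were compared between mouse brain RNA labelled cuprizone and mouse brain RNA labelled control. The 10 genes were taken by symbol from the array annotation, which lists 30920 genes. Each was represented by 1 probe set, so no choice between probe sets was needed. Cuprizone binds copper and, given in food, causes the death of oligodendrocytes and loss of myelin. The cuprizone group was male C57BL/6 with a diet of 0.2% cuprizone for 6 weeks, and the control group was male C57BL/6, labelled as control. The labels do not give the diet and age of the control itself, and do not mention pooling of mice. The sentence on the diet stands with both samples. Groups were therefore taken from the treatment labels, which state no hour of collection. Each group had 1 Affymetrix Mouse Gene 2.0 ST array, a whole-transcript array whose values are log2 expression after RMA (background correction, quantile normalization and probe summary). With 1 array per group there is no replicate check: no test, p-value or error between samples can be given, and each difference describes these arrays. Precision is limited by the number of arrays.

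The mammalian clock is a transcriptional feedback loop that runs in almost every cell. ARNTL and CLOCK form a dimer that binds E-box sequences and switches on the Per, Cry and Nr1d genes and the output gene Dbp. PER and CRY proteins then block the dimer. NR1D1 and NR1D2, the REV-ERB nuclear receptors, repress Arntl through ROR elements. Genes switched on through E-boxes, such as Dbp, Nr1d1 and the Per genes, therefore peak at another time of day than Arntl, and Cry1 peaks later than the Per genes. Dbp, Nr1d1 and Arntl are among the genes with the widest daily swing in most mouse tissues, whereas Clock and Cry2 swing little. In the brain the suprachiasmatic nucleus of the hypothalamus sets the phase of the other regions.

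These genes bear on whether the arrays differ in the way samples of different clock phase would. They were read as an E-box arm (Dbp, Per1, Per2, Per3, Nr1d1 and Nr1d2) and an opposite arm (Arntl, Clock and Cry1). Cry2 was in neither. The grouping was meant to follow time of peak and not promoter letters, but it does so only loosely. Clock swings little and Cry1 is only known here to peak later than the Per genes, so the opposite arm has no common time of peak. Promoter windows from RefSeq for assembly GRCm38.p6, from 250 bases before to 50 bases after a start site, were found for 9 of the 10 genes, all but Per2. The windows below were chosen to show each kind of clock element found, 5′ to 3′ on the gene's strand, with matches in capitals. Searched on both strands were the E-box CACGTG, its variant CACGTT, the D-box TTATGTAA or TTACGTAA to which DBP binds, the ROR element core TAGGTCA or TGGGTCA, and the cAMP response element TGACGTCA.
Per1 (GRCm38.p6, chr11:69098699-69098998, plus strand): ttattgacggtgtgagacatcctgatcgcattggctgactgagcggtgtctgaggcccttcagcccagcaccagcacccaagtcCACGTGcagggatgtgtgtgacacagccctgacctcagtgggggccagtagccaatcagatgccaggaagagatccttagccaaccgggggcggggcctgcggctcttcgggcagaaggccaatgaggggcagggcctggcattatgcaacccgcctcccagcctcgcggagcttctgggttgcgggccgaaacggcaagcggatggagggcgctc
Per3 (GRCm38.p6, chr4:151044616-151044915, minus strand): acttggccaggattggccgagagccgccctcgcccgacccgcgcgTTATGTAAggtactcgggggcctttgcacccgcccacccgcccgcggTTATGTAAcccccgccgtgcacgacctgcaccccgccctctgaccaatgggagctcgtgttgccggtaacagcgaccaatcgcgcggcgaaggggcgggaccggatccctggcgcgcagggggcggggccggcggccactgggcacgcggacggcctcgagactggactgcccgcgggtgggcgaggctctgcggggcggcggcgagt
Cry1 (GRCm38.p6, chr10:85185005-85185304, minus strand): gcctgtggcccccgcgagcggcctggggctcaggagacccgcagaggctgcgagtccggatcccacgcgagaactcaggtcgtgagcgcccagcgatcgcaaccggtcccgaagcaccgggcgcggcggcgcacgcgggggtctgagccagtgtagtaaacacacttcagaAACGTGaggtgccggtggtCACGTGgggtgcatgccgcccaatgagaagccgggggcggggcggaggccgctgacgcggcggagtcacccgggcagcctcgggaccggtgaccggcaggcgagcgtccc
Arntl (GRCm38.p6, chr7:113207261-113207560, plus strand): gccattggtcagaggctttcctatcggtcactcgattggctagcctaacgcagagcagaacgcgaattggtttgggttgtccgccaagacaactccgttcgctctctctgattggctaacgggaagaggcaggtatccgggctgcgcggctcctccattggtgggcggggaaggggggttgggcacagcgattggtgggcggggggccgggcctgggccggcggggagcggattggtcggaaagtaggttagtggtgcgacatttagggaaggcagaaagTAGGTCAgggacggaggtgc
Per1 had an E-box at -166 from this start, Cry1 an E-box at -60 and the variant CACGTT on the other strand at -79. Per3 had D-boxes at -205 and -158, and Arntl an ROR element core at 31, after the start. The variant CACGTT was also found for Cry2 at -166 and Nr1d1 at -28, each on the other strand. In all, 6 of the 13 windows of these genes held a match, and the cAMP response element was found in none of them. Of all 32851 windows in the table, 7.15% held the E-box, 4.68% the variant CACGTT, 1.06% a D-box, 6.45% an ROR element core and 1.79% the cAMP response element. The share of all windows with any of these matches was not computed, so the count of 6 in 13 has no like background. The matches did not follow the arms throughout: Cry1, of the opposite arm, held an E-box, while no match was found for Dbp or Nr1d2. Clock, of the opposite arm, also had no match, and Per2 could not be searched. A match describes the letters of the window and does not show that a factor binds there.

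Both arrays held 41345 probe sets, with medians of 4.36 on the cuprizone array and 4.33 on the control array. Measured here means that at least 1 array reached 4.34, the median over all values, which held for 16559 genes. A background bound was taken from 1459 genes of olfactory and vomeronasal receptors, which are hardly expressed in brain: the upper end of their central 95% was 4.71 on the cuprizone array and 4.68 on the control array. The tissue label is cerebellum, but 7 of 10 cerebellar marker genes were within that background on both arrays, among them Gabra6, the granule cell GABA receptor subunit (1.97 on the cuprizone array and 1.84 on the control array), and Pcp2, a Purkinje cell gene (3.69 on the cuprizone array and 3.18 on the control array). Car8, within the background on the cuprizone array, was at least 0.20 lower there on the log2 scale. Of 12 forebrain markers, 10 were above it on both arrays, including the striatal genes Drd2 (6.35 on the cuprizone array and 6.55 on the control array) and Rgs9 (7.73 on the cuprizone array and 7.67 on the control array). Lamp5, a marker of forebrain neurons, differed by -0.41, and Emx2, within the background on the cuprizone array, was at least 0.03 lower there. Below, the arrays are named by treatment and not by region.

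As deposited, no core clock gene differed by 1.5-fold between the cuprizone and the control array. Of the 10 genes 5 were higher and 5 lower on the cuprizone array, with log2 differences between -0.30 for Cry1 and 0.15 for Per3. When the arrays were scaled on added spike-in RNAs instead, all 10 were lower. The median difference was -0.00311, against -0.01 over all measured genes. The median size of a difference, sign ignored, was 0.150 for the clock genes and 0.144 for all measured genes. At least 1.5-fold higher were 0 of the 10, against 1.6% of all measured genes, and at least 1.5-fold lower 0 of the 10, against 1.35%; in either direction 2.95% of measured genes passed, so a count of 0 among 10 is near the background. All 10 were measured and lay above the receptor background on both arrays.

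**Figure D1:**
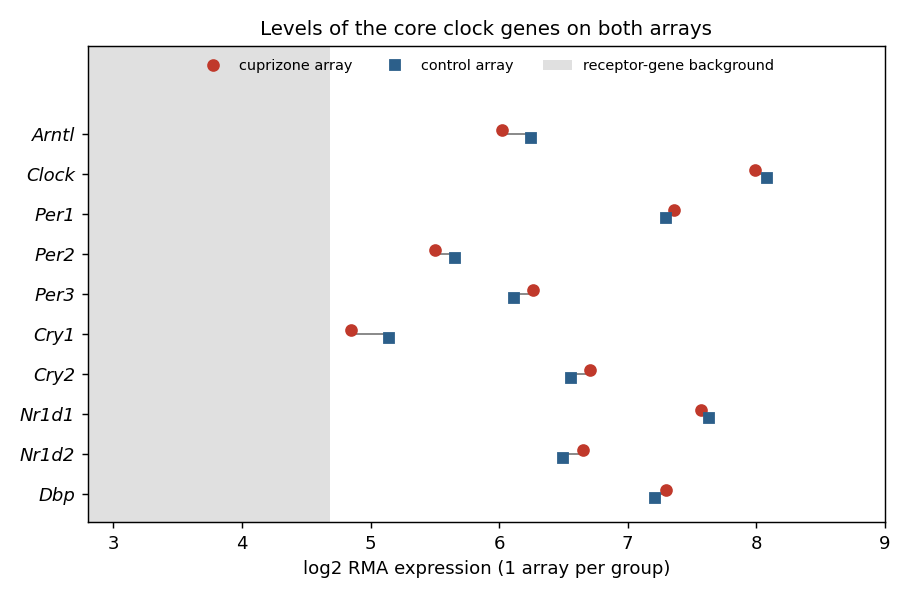
Log2 RMA expression of each core clock gene (horizontal axis) on the cuprizone array (red circles) and the control array (blue squares), 1 array per group, with the receptor-gene background shaded up to 4.68. The symbols of each gene lie close together, the widest gap being that of Cry1 (4.85 on the cuprizone array and 5.15 on the control array); levels of different genes come from different probes and are not comparable.

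The activator genes were slightly lower on the cuprizone array as deposited. Arntl, whose protein is the indispensable partner of the activating dimer, had a level of 6.02 on the cuprizone array and 6.25 on the control array, a log2 difference of -0.23 or 0.855-fold. Its probe set is annotated on chromosome 7 from 113207465 to 113314126, plus strand, and covers 78.6% of the RefSeq gene span. Clock, the histone acetyltransferase partner of ARNTL, was at 7.99 on the cuprizone array and 8.08 on the control array, a difference of -0.10. Its probe set lies on chromosome 5 from 76210967 to 76304792, minus strand. Differences at least as large as that of Arntl were seen in 227 of the 1000 measured genes nearest to it in mean level, and for Clock in 500 of 1000. Both values lay inside the central 95% of genes of the same brightness, which ran from -0.42 to 0.41 around Arntl and from -0.35 to 0.30 around Clock. The annotation gives no genome build, but its spans covered between 78.6% and 100% of the GRCm38.p6 spans of the same 10 genes.

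The Per genes, which encode the repressor subunits that enter the nucleus with CRY, did not share a direction as deposited. Per1, which also responds quickly to light, neuronal activity and glucocorticoids, was at 7.36 on the cuprizone array and 7.30 on the control array, a difference of 0.06. Per2 was at 5.50 on the cuprizone array and 5.66 on the control array, a difference of -0.15. Per3, the least needed of the Per genes for rhythm in mice, was at 6.27 on the cuprizone array and 6.11 on the control array, a difference of 0.15. Per2 was thus lower on the cuprizone array, and Per1 and Per3 higher. The differences of Per2 and Per3 lay 0.306 apart, a gap that a common shift of an array does not alter. Per1 is annotated on chromosome 11 from 69095217 to 69109960 (plus strand), Per2 on chromosome 1 from 91415982 to 91459330 (minus strand) and Per3 on chromosome 4 from 151003652 to 151044665 (minus strand). Among the 1000 genes nearest in level, 70.0% differed by at least as much as Per1, 46.9% as Per2 and 41.5% as Per3.

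The cryptochromes, which carry most of the repression of the dimer, gave the widest gap between paralogs. Cry1 was at 4.85 on the cuprizone array and 5.15 on the control array, a difference of -0.30 or 0.813-fold, the largest of the 10. It lies on chromosome 10 from 85131700 to 85185054, minus strand, and was the dimmest relative to background, at 0.139 above the bound on the cuprizone array and 0.462 above it on the control array. Cry2, on chromosome 2 from 92403646 to 92434069, minus strand, was at 6.71 on the cuprizone array and 6.56 on the control array, a difference of 0.15 or 1.11-fold. The differences of the cryptochromes were 0.449 apart, the most of the 6 pairs compared within the activators, Per genes, Cry genes and REV-ERB genes. Of genes near them in level, 22.1% differed by at least as much as Cry1 and 35.5% as Cry2.

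The REV-ERB genes and Dbp, which swing widely over the day, differed by 0.15 or less in either direction as deposited. With poly-A spike-in scaling Nr1d1 was at -0.44, Dbp at -0.29 and Nr1d2 at -0.23. Nr1d1 was at 7.57 on the cuprizone array and 7.63 on the control array, a difference of -0.06. Nr1d2 was at 6.65 on the cuprizone array and 6.50 on the control array, a difference of 0.15. Dbp, a PAR bZIP transcription factor that passes the rhythm on to D-box genes, was at 7.29 on the cuprizone array and 7.21 on the control array, a difference of 0.08 or 1.06-fold. Of the 1000 genes nearest in level, 67.7% differed by at least as much as Nr1d1, 36.8% as Nr1d2 and 56.1% as Dbp. Nr1d1 is annotated on chromosome 11 from 98767932 to 98775333 (minus strand), Nr1d2 on chromosome 14 from 18204054 to 18239127 (minus strand) and Dbp on chromosome 7 from 45705088 to 45710203 (plus strand). None of the 10 probe sets, which held 18 to 39 probes, is marked by the annotation as cross-hybridising.

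**Figure D2:**
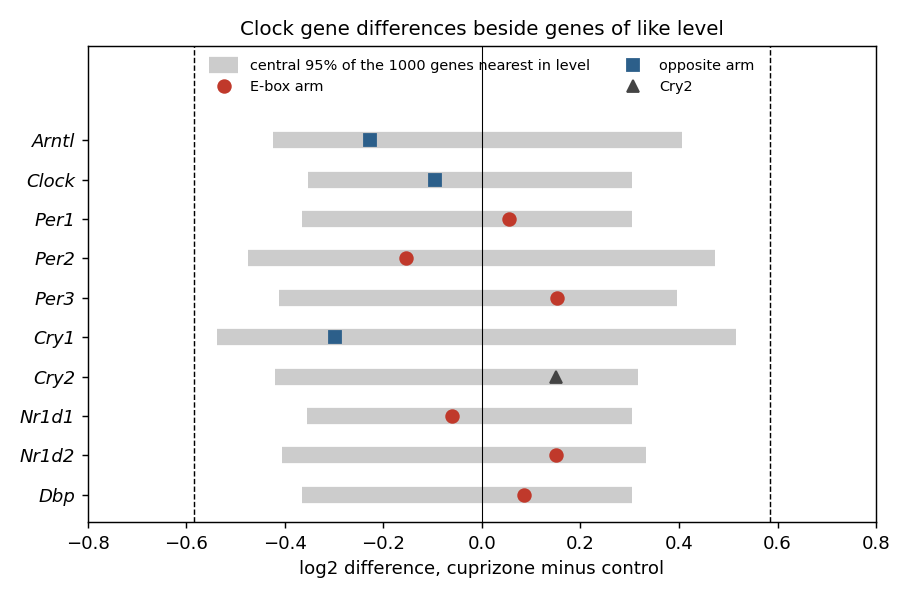
Log2 difference, cuprizone minus control, of each core clock gene (symbols; circles for the E-box arm, squares for the opposite arm, a triangle for Cry2) on the central 95% of differences among the 1000 measured genes nearest to it in mean level (grey bars), with dashed lines at 1.5-fold. All 10 symbols lie inside their bars.

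Read by arm, the E-box genes averaged a log2 difference of 0.04 and the opposite arm -0.21. In the E-box arm 4 of 6 genes were higher and 2 lower on the cuprizone array (0 higher and 6 lower with spike-in scaling), and in the opposite arm 3 of 3 were lower under every scaling tried. The gap between the arms was 0.25, or 1.19-fold. Since the opposite arm has no common time of peak, the gap is not a pure contrast of clock phase. A common shift of an array moves both arms alike and leaves this gap unchanged. With 1 array per group the gap has no test. Leaving out each gene in turn gave gaps from 0.20 without Cry1 to 0.30 without Clock. With the companion genes of the loop added to both arms the gap was 0.16, and by medians it was 0.30. The hour of collection is not in the labels and cannot be told apart from the diet, since each group is 1 array.

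Among companion genes of the loop 0 of 13 measured genes passed 1.5-fold as deposited, near the share of 2.95% over all measured genes. On the side of the E-box arm, 7 of 8 genes were measured, with a median difference of 0.04, 5 above 0 and 2 below as deposited. Hlf, a PAR bZIP relative of Dbp, was at 6.36 on the cuprizone array and 6.61 on the control array, a difference of -0.24. Ciart, a repressor of the ARNTL and CLOCK dimer, differed by 0.17, and Bhlhe40, another E-box repressor, by 0.12. On the side of the opposite arm all 6 genes were measured, with a median of -0.0045, 3 above 0 and 3 below as deposited. With spike-in scaling all 13 were below 0, and Rora and Nfil3, and Hlf with poly-A spike-ins, passed 1.5-fold lower. Of all measured genes 8.51% passed 1.5-fold lower with hybridization and 18.7% with poly-A spike-ins. Rora, the nuclear receptor that activates Arntl, was at 6.59 on the cuprizone array and 6.95 on the control array, a difference of -0.36. Nfil3, which represses D-box genes, was at 4.92 on the cuprizone array and 5.28 on the control array, a difference of -0.35. Npas2, the forebrain counterpart of Clock, was at 7.39 on both arrays.

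Genes whose proteins modify or degrade clock proteins were spread around 0 as deposited. Of 26 kinases, ubiquitin ligases and cofactors 25 were measured, with a median of 0.0072, 13 above 0 and 10 below. Past 1.5-fold were 0 of them, near the share of 2.95% over all measured genes. With hybridization spike-in scaling 23 were below 0 and 1 passed 1.5-fold lower, against 8.51% of all measured genes. With poly-A spike-in scaling 25 were below 0 and 2 passed, against 18.7%. Csnk1e, a casein kinase that marks PER proteins for degradation, was at 5.93 on the cuprizone array and 6.29 on the control array, a difference of -0.36. Fbxl21, a ligase subunit for CRY proteins, was within the background on the control array and at least 0.17 higher on the cuprizone array. Nono, a nuclear partner of PER proteins, differed by 0.30.

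**Figure D3:**
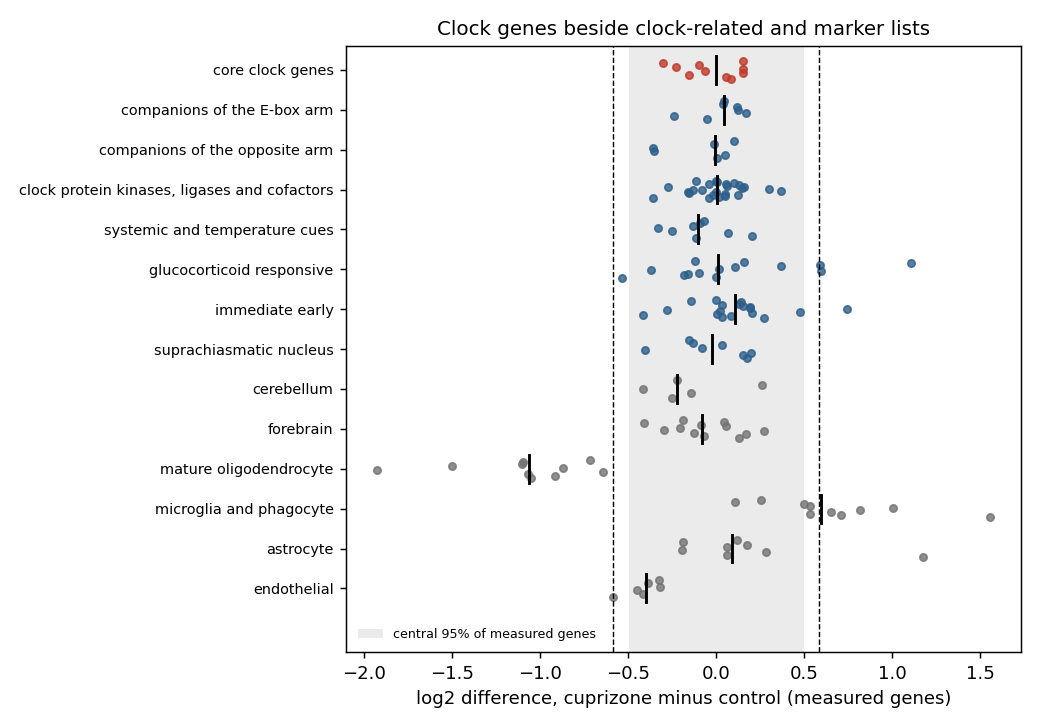
Log2 difference, cuprizone minus control, of the measured genes of each list (points), with the list median (black bars), the central 95% of all measured genes (shaded, -0.49 to 0.50) and 1.5-fold (dashed). Clock genes and their companions lie inside the shaded range, whereas mature oligodendrocyte genes lie to its left and most microglia and phagocyte genes to its right.

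Cues that can reset or mimic clock changes were examined in the same way. Among temperature-linked genes, 0 of 8 passed 1.5-fold as deposited, against 2.95% of all measured genes, with a median of -0.10. With spike-in scaling all 8 were below 0, with medians of -0.36 (hybridization) and -0.48 (poly-A), and 1 and 2 of them passed 1.5-fold lower. For all lists here, the shares of all measured genes to set beside spike-in counts were 8.51% lower and 0.403% higher with hybridization spike-ins. With poly-A spike-ins they were 18.7% lower and 0.216% higher. The chaperone Hsph1 differed by -0.33, and the cold-induced RNA-binding protein Rbm3 by 0.20, while Hspa1b was within the background on both arrays. Among glucocorticoid-responsive genes, 3 of 14 measured genes passed 1.5-fold higher on the cuprizone array and 0 lower as deposited, against 1.6% and 1.35% of all measured genes, with a median of 0.0092. With either spike-in scaling these counts were 1 higher and 2 lower, and with array-median centring 1 higher and 0 lower. The higher genes were Cdkn1a, a cell cycle inhibitor that is also a p53 target, at 5.96 on the cuprizone array and 4.85 on the control array (2.15-fold), Klf15, a Krüppel-like transcription factor (a log2 difference of 0.594), and Nfkbia, the NF-kB inhibitor (0.588). Klf15 and Nfkbia lay just past 1.5-fold and fell short of it with array-median centring. Tsc22d3, a direct glucocorticoid target, was within the background on the cuprizone array and at least 0.22 lower there on the log2 scale, and Fkbp5, another, was within the background on both arrays. Of immediate early genes, 18 of 20 were measured, 1 was at least 1.5-fold higher and 0 lower as deposited, and the median was 0.11 (-0.16 with hybridization and -0.27 with poly-A spike-in scaling). That gene, the neuronal activity gene Npas4, differed by at least 0.44 with its control value, which lay in the background, raised to the bound, short of 1.5-fold. With spike-in scaling 0 genes of this list were 1.5-fold higher, and 1 was lower with hybridization and 2 with poly-A spike-ins. Jun differed by -0.42, and Egr2, also in the background on the control array, by at least 0.10.

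Of 11 genes listed for the suprachiasmatic nucleus, 6 were within the background on both arrays, Nms, Prok2, Six6 and Lhx1 among them. The other 5 were above it on both arrays: Vip, Avp, Cck, Rgs16 and Per2, the last also a core clock gene. The neuropeptide gene Vip, which cortical interneurons also express, was at 5.50 on the cuprizone array and 5.33 on the control array. Avp and Cck, also neuropeptide genes, differed by 0.15 and 0.03 as deposited. Rgs16, a G protein regulator, differed by -0.40, the largest in this list. Of the 8 measured genes of the list, Per2 among them, 0 passed 1.5-fold as deposited, against 2.95% of all measured genes. With either spike-in scaling all 8 were below 0 and 1 passed 1.5-fold lower, against 8.51% (hybridization) and 18.7% (poly-A) of all measured genes.

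Among cell type markers on the same arrays, those of mature oligodendrocytes were lower on the cuprizone array and those of microglia mostly higher. All 10 mature oligodendrocyte markers were lower by 1.5-fold or more under every scaling tried, with a median of -1.06 as deposited. The myelin gene Mobp differed by -1.93, and Mal, a myelin membrane protein, was at 6.16 on the cuprizone array and 7.66 on the control array. All 10 microglia and phagocyte markers were higher on the cuprizone array as deposited (8 with spike-in scaling), 5 of them by at least 1.5-fold, with a median of 0.59. With spike-in scaling 2 passed 1.5-fold, and the median was 0.33 with hybridization and 0.22 with poly-A spike-ins, while P2ry12, a microglial receptor, differed by 0.11 as deposited, less than Cry1 in size. The lysosomal protein Cd68 differed by 1.55, and the complement chain C1qc was at 6.03 on the cuprizone array and 5.03 on the control array. Of the 8 astrocyte markers only Gfap passed 1.5-fold as deposited, with a difference of 1.17, next to Slc1a3 at 0.28. The astrocyte median was 0.09 as deposited, with 2 below 0. With hybridization spike-ins it was -0.17, with 6 below 0, and with poly-A spike-ins -0.29, with 7 below 0. All 6 endothelial markers were lower under every scaling tried, with a median of -0.40, Cldn5 at -0.59 and Cdh5 at -0.45. Cldn5 was the only endothelial marker past 1.5-fold as deposited, while 0 of 6 passed after quantile normalization or trend removal. With hybridization spike-in scaling 5 passed and with poly-A spike-in scaling 6. Of all measured genes 8.51% were 1.5-fold lower and 0.403% higher with hybridization spike-ins, and 18.7% lower and 0.216% higher with poly-A spike-ins. Summed over each list, log2 levels were 61.8 on the cuprizone array and 72.6 on the control array for oligodendrocytes. For microglia they were 64.6 on the cuprizone array and 58.0 on the control array. They were 66.1 on the cuprizone array and 64.6 on the control array for astrocytes, and for endothelium 34.3 on the cuprizone array and 36.7 on the control array. Such sums of log2 values are not amounts of RNA or of a cell type, and lists cannot be compared by them. Of these 34 markers only Opalin, on the cuprizone array, and Aif1, on the control array, were within the background. In bulk tissue fewer cells of a type and less RNA per cell cannot be told apart, and the part of cell makeup in the clock gene values was not tested.

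The sign of 5 of the 10 clock gene differences depended on how the arrays were scaled. Hybridization spike-ins, RNAs added in known amount, had a median difference of 0.262 and poly-A spike-ins one of 0.376, so scaling on them moved the median of all measured genes by -0.26 and -0.38. All 10 clock genes were then below 0, from -0.56 to -0.11 with hybridization spike-ins and from -0.68 to -0.22 with poly-A spike-ins. With poly-A spike-ins Cry1 (-0.68) and Arntl (-0.60) passed 1.5-fold lower, as did 18.7% of measured genes. Relative to the median of all measured genes, Cry1 stood at -0.29, Arntl at -0.21, Per2 at -0.14, Dbp at 0.10 and Per3 at 0.17 as deposited, and spike-in scaling, which shifts all genes of an array alike, leaves these values unchanged. Under array-median centring, quantile normalization and removal of the trend with level, 5 genes stayed higher and 5 lower, each with its own sign.

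**Figure D4:**
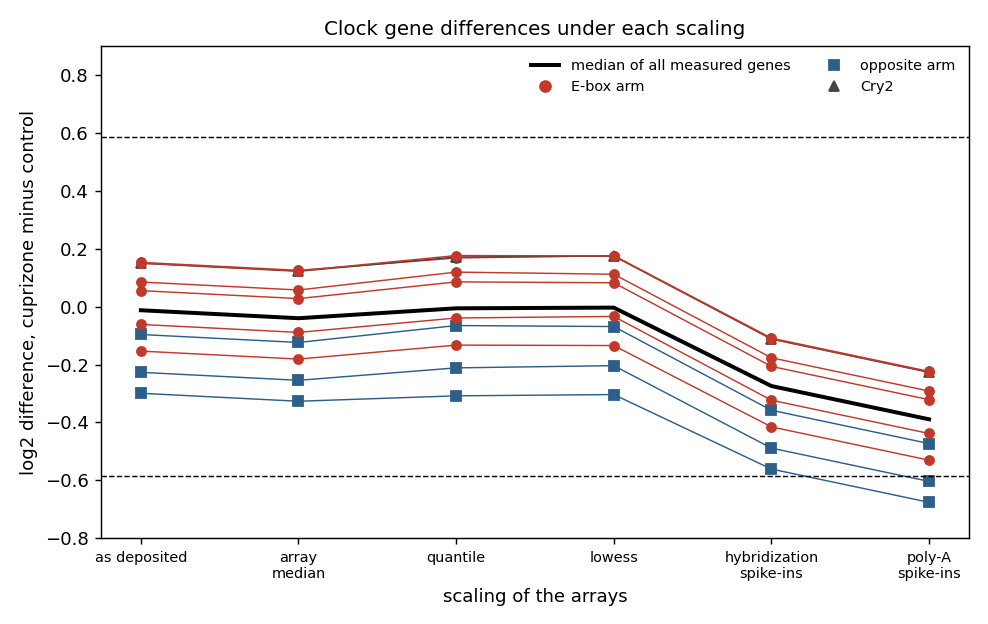
Log2 difference, cuprizone minus control, of each core clock gene (lines with symbols) under 6 scalings of the arrays (horizontal axis), with the median of all measured genes as a thick black line and 1.5-fold dashed. The genes move down together with the median under spike-in scaling, and Cry1 and Arntl pass 1.5-fold lower with poly-A spike-ins.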

How the data were processed

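The deposited values are log2 expression, 1 per probe set and array; the submitters' processing notes name RMA and Affymetrix Power Tools. They came as a pair of tables whose values differed by at most 5e-05. RMA equalises the distributions of the arrays, so a change in total RNA would not show. No genome build is named in the labels or the files, and pooling is not mentioned in the labels. Symbols came from the deposited annotation; for the 657 genes with over 1 probe set the brightest was used. Differences are cuprizone minus control log2 values with no further centring. No test was run, since each group is 1 array. Members, lists and named genes were chosen with earlier results of these data known. Named were all 10 clock genes, and up to 3 genes of each clock-related list with the largest differences and any past 1.5-fold. Of each marker list 2 genes were named, plus Gabra6, Pcp2, Drd2 and Rgs9. Npas2, Nms, Prok2, Six6, Avp, Cck, Tsc22d3, Fkbp5, Opalin, Aif1 and P2ry12 were picked once their values were known. Some genes that this rule names are not reported here. Alternatives were array-median centring, quantile normalization, lowess trend removal (span 0.2), scaling on the median difference of 18 hybridization or 39 poly-A spike-in probe sets, the other deposited table, the mean of probe sets, a 2-fold threshold, no level filter, a 75th percentile filter (5.55), and changes to the arms. Counts and scalings were tested on simulated data. The simulated shift was the same for genes and spike-in RNAs, unlike in these arrays, so it cannot show which scaling is right here. Python 3.11.15, pandas 2.3.3 and statsmodels 0.14.6 were used.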

Additional observations from a re-analysis of the deposited data

How the results depend on the processing

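The differences of the clock genes and the gap between the arms kept their sign under all scalings within the arrays' own genes. They also did so with the other deposited table and the mean of probe sets. Neither of these could change them, since the tables differ by at most 5e-05 and each clock gene has 1 probe set. Leaving out each gene in turn, an alternative chosen after seeing the data, also kept the sign of the gap. The gap was also unmoved by array-median centring and by spike-in scaling, by construction. With hybridization spike-ins the median of the 10 clock genes was -0.26, 0.403% of measured genes passed 1.5-fold higher and 8.51% lower, and 1 and 8 of the other clock-related genes were (as deposited, 4 and 0). With poly-A spike-ins that median was -0.38, 2 clock genes were at least 1.5-fold lower, 0.216% of measured genes were higher and 18.7% lower, and 1 and 12 of the other clock-related genes were. These values follow from the shift of the whole array. Array-median centring left 2 clock-related genes at least 1.5-fold higher, since Klf15 and Nfkbia fell short. At 2-fold, 0.223% of measured genes were higher and 0.127% lower, with 1 clock-related gene higher. The share at least 1.5-fold higher was 2.85% with no level filter and 1.01% with the 75th percentile filter. No paired analysis was possible because each group has 1 array. Dim genes limit what can be read: Cry1 lies close to the receptor background, and 1 array per group leaves the variation between mice unmeasured.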
